A study of Mus musculus with 2 samples.

Results

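The loci of the 4 myogenic regulatory factor genes Myod1, Myog, Myf5 and Myf6 were examined in a genome-wide profile of macroH2A1.1 in C2C12 cells, an established mouse line of muscle precursor cells. Regions of enrichment were taken into account when they overlapped, by 1 bp or more, 1 of 3 mm9 windows drawn around these genes. These windows were chr7:53530001-53735000 for Myod1, chr1:136085001-136290000 for Myog and chr10:106820001-107035000 for the neighbours Myf5 and Myf6. They held 19 of the 50887 regions in the list, with 4 at Myod1, 9 at Myog and 6 at Myf5 and Myf6. Among listed regions, position alone placed a region in this set. The list itself holds only regions in which the caller found ChIP reads above input, so an enrichment above 1 restates that selection and is given as a description.

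The profile was made from 2 libraries, both from wild-type C2C12 cells. The ChIP group (n = 1) was precipitated with an antibody against macroH2A1.1, and the input group (n = 1) received no antibody. The source label reads myoblast, whereas the abbreviation DM in the short descriptions matches the differentiation medium of the growth protocol and the study describes the profile as one of myotubes. Because RNA was not measured in these libraries, neither state could be checked against marker genes. With a single library in each group there was no replicate error to report, and every interval covers counting error only. Regions of the whole list contained 4884176 ChIP and 1585463 input reads, of which 1168 and 416 fell into regions at the myogenic loci.

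MacroH2A1.1 is a splice isoform of a histone variant that carries a large macrodomain behind its histone fold, and its macrodomain binds ADP-ribose. The myogenic regulatory factors are basic helix-loop-helix proteins that bind the E-box, a short DNA motif, as dimers with E proteins. Myf5 and MyoD, the product of Myod1, commit precursor cells to the muscle lineage. Myogenin, the product of Myog, drives the differentiation that precedes fusion, and the product of Myf6, also called MRF4, acts both early and in mature fibres. The genes are compact, and distant enhancers contribute to their control.

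The order of genes around the loci is known from the GENCODE annotation of GRCm38, a later build than that of the regions. Within 100 kb of Myod1 the annotation has the protein-coding genes Otog, for an inner-ear matrix protein, Kcnc1, for a potassium channel, and Sergef. Myog is flanked by Chil1, Mybph, Adora1, Ppfia4, Tmem183a and 4933406M09Rik, of which Mybph encodes a myosin-binding protein and Adora1 an adenosine receptor. Myf5 and Myf6 lie in tandem on the same strand, 6718 bp apart with 0 protein-coding genes between them, and have Lin7a and Ptprq, which encodes a receptor-type phosphatase, as their neighbours. The 4 genes themselves are 1885 to 3227 bp long. No mm9 annotation was used here, so the regions below could not be assigned to a promoter, an exon or an enhancer. Their distances are given from the midpoint of the window, with "below" for lower and "above" for higher coordinates. For the same reason the other genes of the myogenic programme were not analysed here.

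Sequences just before the gene start were at hand for 2 of the 4 members in the RefSeq table of GRCm38.p6, and none was at hand for Myod1 and Myf6. They are printed to show the promoters whose surroundings are described, since myogenic factors bind E-boxes. Each is given over the 250 bases before the start, with every match to the E-box CANNTG in capitals. This motif reads the same on both strands.

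Myog, chr1:134289754-134290003, plus strand: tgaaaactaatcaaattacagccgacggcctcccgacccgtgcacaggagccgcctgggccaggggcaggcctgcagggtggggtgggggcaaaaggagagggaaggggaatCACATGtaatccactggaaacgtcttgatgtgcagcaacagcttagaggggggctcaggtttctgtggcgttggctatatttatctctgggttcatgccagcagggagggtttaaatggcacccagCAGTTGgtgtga
Myf5, chr10:107486135-107486384, minus strand: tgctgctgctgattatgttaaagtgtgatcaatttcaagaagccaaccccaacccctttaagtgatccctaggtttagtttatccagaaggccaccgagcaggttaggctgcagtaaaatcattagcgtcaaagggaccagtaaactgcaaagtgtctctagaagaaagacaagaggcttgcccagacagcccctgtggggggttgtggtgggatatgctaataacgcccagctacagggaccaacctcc

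The Myog sequence held 2 matches, which began 138 and 12 bases before the start. A total of 31.8% of the 32851 promoters in the table had at least 2 matches in the same stretch, and 66.2% had at least 1. The Myf5 sequence had 0 matches in these 250 bases. A match is a description of letters, and none of the regions could be placed on these sequences, which belong to another build.

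The first question was how much of each locus lay under macroH2A1.1 regions. At Myod1, 4 regions covered 11.0 kb of 205 kb, a share of 5.37%. In the Myf5 and Myf6 window 6 regions covered 22.4 kb of 215 kb (10.4%), and at Myog 9 regions covered 28.6 kb of 205 kb (14.0%). The loci thus differed 2.60-fold at most in covered share, and no locus was without a region. All 3 windows had regions on both sides of their midpoint, and none had a region over the midpoint itself.

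**Figure D1:**
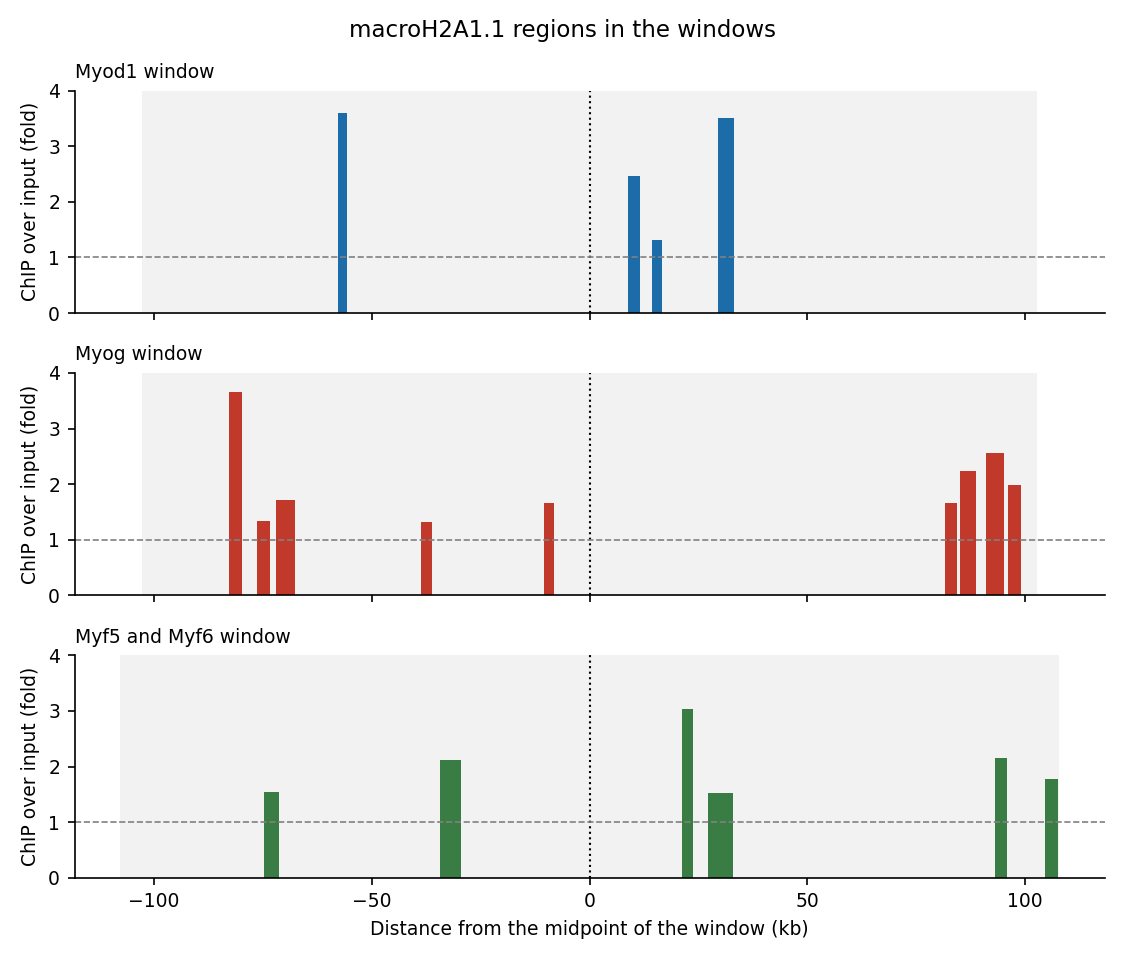
Position of the 19 regions in the 3 windows (grey areas), with the distance from the window midpoint in kb on the horizontal axis and the ChIP over input enrichment in fold as the height of each bar. Bars are as wide as the region within the window, the dotted line is the midpoint and the dashed line is an enrichment of 1. The Myog regions lie mostly towards both ends of their window, whereas 3 of the 4 Myod1 regions lie within 33.1 kb of the midpoint.

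The Myod1 regions lay apart from other regions on chromosome 7, which is poor in regions as a whole. In a window of doubled length the covered share was 2.68%, beside 2.62% for the chromosome. This locus encodes MyoD, a lineage-determining factor. The first region, chr7:53574601-53576800, had 47 ChIP reads and 9 input reads, which is 3.60-fold after scaling for library size (95% exact interval 1.75 to 8.36), and ended 55.7 kb below the midpoint. The second, chr7:53641201-53644000, began 8.7 kb above the midpoint and was enriched 2.47-fold (1.28 to 5.15) from 43 ChIP and 12 input reads. These lay on opposite sides of a region-free stretch of 64.4 kb.

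The third Myod1 region, chr7:53646801-53649200, was the weakest of all 19, at 1.31-fold (0.820 to 2.13) from 55 ChIP and 29 input reads. Its ChIP density of 22.9 reads per kb was the highest at Myod1, but so was its input density of 12.1 reads per kb, which exceeded that of 99.6% of the regions on chromosome 7. The fourth, chr7:53662001-53665600, had 56 ChIP and 11 input reads and 3.51-fold enrichment (1.82 to 7.43). In this window 3 of the 4 regions were therefore enriched 2-fold or more, as were 81.3% of all regions on chromosome 7. The other region could not be told from the input by its counting interval. Outside the window, the next region below was 117.2 kb from its edge, with 88 ChIP and 17 input reads (3.57-fold), and the next above was 543.6 kb away, with 52 and 11 reads (3.26-fold).

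At Myf5 and Myf6, which encode an early determination factor and MRF4, the regions were spread over the whole window. The first, chr10:106852801-106856200, was enriched 1.54-fold (0.905 to 2.72) from 47 ChIP and 21 input reads. The second, chr10:106893201-106898000, had the most ChIP reads of the 19 regions, 104 against 34 input reads, and was enriched 2.11-fold (1.42 to 3.21). It ended 29.5 kb below the midpoint and bordered a region-free stretch of 50.6 kb.

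On the other side of this stretch, 21.1 kb above the midpoint, the third region, chr10:106948601-106951200, showed the strongest enrichment of the window with 44 ChIP and 10 input reads, 3.03-fold (1.50 to 6.76). The fourth, chr10:106954601-106960400, was the widest of the 19 with 5800 bp, and its 84 ChIP and 38 input reads gave 1.52-fold (1.03 to 2.30). A narrow strong region thus lay only 3.4 kb from a wide weak one, and their intervals overlapped. The fifth, chr10:107020601-107023400, had 47 and 15 reads (2.16-fold, 1.19 to 4.16). The sixth, chr10:107032001-107037200, had 80 and 31 reads (1.78-fold, 1.16 to 2.79) and crossed the window edge, with 3000 of its 5200 bp inside. Beyond it, 3.6 kb past the edge, followed a region with 51 ChIP and 26 input reads (1.35-fold), while the next region below the window was 20.2 kb away with 49 and 14 reads (2.41-fold).

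The Myog locus, whose product myogenin marks entry into differentiation, held the most regions, and 7 of its 9 lay in groups near the ends of the window. The lower group began with chr1:136104601-136107600, where 53 ChIP and 10 input reads gave 3.66-fold (1.84 to 8.06), the highest enrichment of all 19. It was followed by chr1:136111001-136114200 with 56 and 29 reads (1.33-fold, 0.836 to 2.16) and by chr1:136115401-136119800 with 95 and 38 reads (1.72-fold, 1.17 to 2.58). Enrichment within this group of 15.2 kb therefore ranged from the strongest to close to the weakest of the set, although the 3 regions had 17.5 to 21.6 ChIP reads per kb.

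Closer to the midpoint of the Myog window lay chr1:136148801-136151200, with 42 ChIP and 22 input reads (1.32-fold, 0.768 to 2.32), and chr1:136177001-136179200, with 41 and 17 reads (1.66-fold, 0.924 to 3.12). The latter had the fewest ChIP reads of the 19 regions and ended 8.3 kb below the midpoint. Neither interval excluded 1. From there a stretch of 89.8 kb without a region, 43.8% of the window, extended to the upper group.

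This upper group had the most regions of any chain in the windows, with 4 regions separated by 800 to 2400 bp over 17.6 kb. By length it was exceeded by a chain of 3 regions over 21.0 kb at the upper edge of the Myf5 and Myf6 window. It started with chr1:136269001-136271800, with 65 ChIP and 27 input reads (1.66-fold, 1.05 to 2.71), and chr1:136272601-136276200, with 68 and 21 reads (2.23-fold, 1.35 to 3.84). The others were chr1:136278601-136282600, with 89 and 24 reads (2.56-fold, 1.61 to 4.20), and chr1:136283601-136286600, with 52 and 18 reads (1.99-fold, 1.15 to 3.62). The enrichment intervals of these 4 regions overlapped one another. Taken as one, the chain was enriched 2.10-fold (1.65 to 2.69) and was covered to 76.1%. Of the 1497 chains on chromosome 1, made by joining regions within 10 kb, 22.5% had as many regions or more. The nearest regions outside the window were 8.8 kb below it (148 ChIP and 64 input reads, 1.59-fold) and 149.4 kb above it (104 and 35 reads, 2.05-fold).

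**Figure D2:**
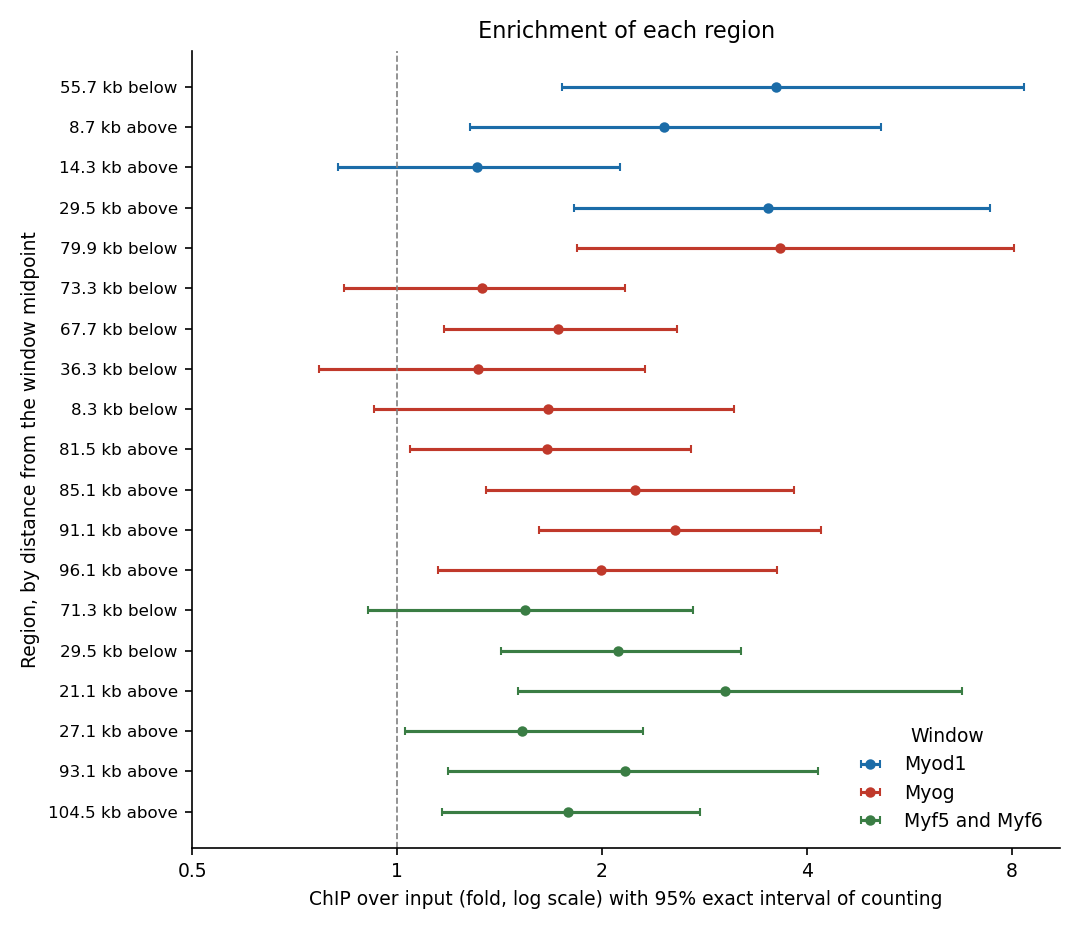
Enrichment of each of the 19 regions as ChIP over input in fold on a log scale, with points for the deposited value and bars for the 95% exact interval of the counts. Regions are ordered along each chromosome and named by their distance from the window midpoint, and 5 of the intervals reach below the dashed line at 1.

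It was next asked whether enrichment differed between the loci. With the reads of all regions in a window summed, ChIP exceeded input 2.27-fold at Myod1 (201 ChIP and 61 input reads, interval 1.70 to 3.08). The value was 1.88-fold at Myog (561 and 206 reads, 1.60 to 2.21) and 1.88-fold at Myf5 and Myf6 (406 and 149 reads, 1.55 to 2.28). The ratio of enrichment was 1.21 for Myod1 over Myog (95% exact interval 0.863 to 1.71), 1.21 for Myod1 over Myf5 and Myf6 (0.849 to 1.74) and 0.999 for Myog over Myf5 and Myf6 (0.775 to 1.29). A difference between loci was therefore not detectable at this depth, and the intervals do not show that the loci were alike. An FDR limit of 0.01 removes the third Myod1 region and 2 Myog regions, and it raises the enrichment of these windows by construction, since weak regions are the ones it drops. With it the Myod1 value was 3.15-fold, and the ratio was 1.67 (1.08 to 2.65) for Myod1 over Myf5 and Myf6, 1.53 (0.987 to 2.41) for Myod1 over Myog and 1.096 (0.837 to 1.44) for Myog over Myf5 and Myf6. Summed over all their regions without this limit, chromosomes 7, 1 and 10 were enriched 2.71-fold, 2.18-fold and 2.14-fold. The ratios between windows were not adjusted for this.

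The windows were then set against the other regions of their own chromosomes. The ratio of enrichment to the other regions was 0.837 at Myod1 (0.625 to 1.13), 0.863 at Myog (0.734 to 1.02) and 0.876 at Myf5 and Myf6 (0.724 to 1.06). All 3 ratios lay below 1 and each interval included 1. At Myod1 the third region held 29 of the 61 input reads. By the median over regions the order there turned, with 2.99-fold in the window beside 2.82-fold on chromosome 7. The window medians stayed lower at Myog (1.72-fold beside 2.23-fold) and at Myf5 and Myf6 (1.94-fold beside 2.20-fold). Single regions spanned much of the range on their chromosome. The lowest, at Myod1, exceeded 0.635% of the regions on chromosome 7 in enrichment, and the highest, at Myog, exceeded 89.3% of those on chromosome 1.

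Across the 3 windows, 9 of 19 regions (47.4%) were enriched 2-fold or more, against 61.3% of the whole list. On chromosomes 7, 1 and 10 this share was 81.3%, 63.3% and 61.2%. None of the 19 regions reached 4-fold, as 8.34% of the whole list did. The FDR deposited for the 19 regions ranged from 5.83e-15 to 0.0390, and it was 0.01 or less in 16 of them (84.2%), against 95.8% of the whole list. An FDR of 0.05 or less was kept by 14 of the 19 (73.7%) in a one-sided exact binomial test that takes the sampling error of the input into account, against 90.1% of the whole list. The 5 regions without this call were the third at Myod1, the second, the fourth and the fifth at Myog and the first at Myf5 and Myf6, which are also those whose interval included 1. The median enrichment was 1.99-fold, beside 2.21-fold over all regions, and the median width was 3000 bp, beside 3600 bp. Regions at the myogenic loci had a median of 55 ChIP reads (range 41 to 104) and 21 input reads (range 9 to 38). These shares and medians are descriptions of 19 regions and were not tested against the list.

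Among the 19 regions input density varied more than ChIP density. ChIP reads per kb ranged from 13.8 to 23.2, a 1.68-fold span, while input reads per kb ranged from 3.06 to 12.1, a 3.95-fold span. On the log2 scale the SD over regions was 0.23 for ChIP density and 0.54 for input density, where counting alone would give about 0.19 and 0.34. Enrichment was ordered by input density (Spearman rho = -0.894, n = 19 regions) and not by ChIP density (rho = -0.0272). Over the 50863 regions of the list with any input reads, these values were -0.847 and 0.344. Enrichment is computed by dividing through the input reads, and all regions come from the same pair of libraries. The list also holds only regions called for ChIP reads above input, which limits how low ChIP density can be. The spans and correlations are therefore given as a description. The 5 regions whose interval included 1 had 9.06 input reads per kb at the median and the 14 others 5.90, with the same median of 17.5 ChIP reads per kb in both. The interval is computed from the same input reads, so the higher input of these 5 regions follows in part from the split. Whether the input density reflects the cells or the library was not tested.

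**Figure D3:**
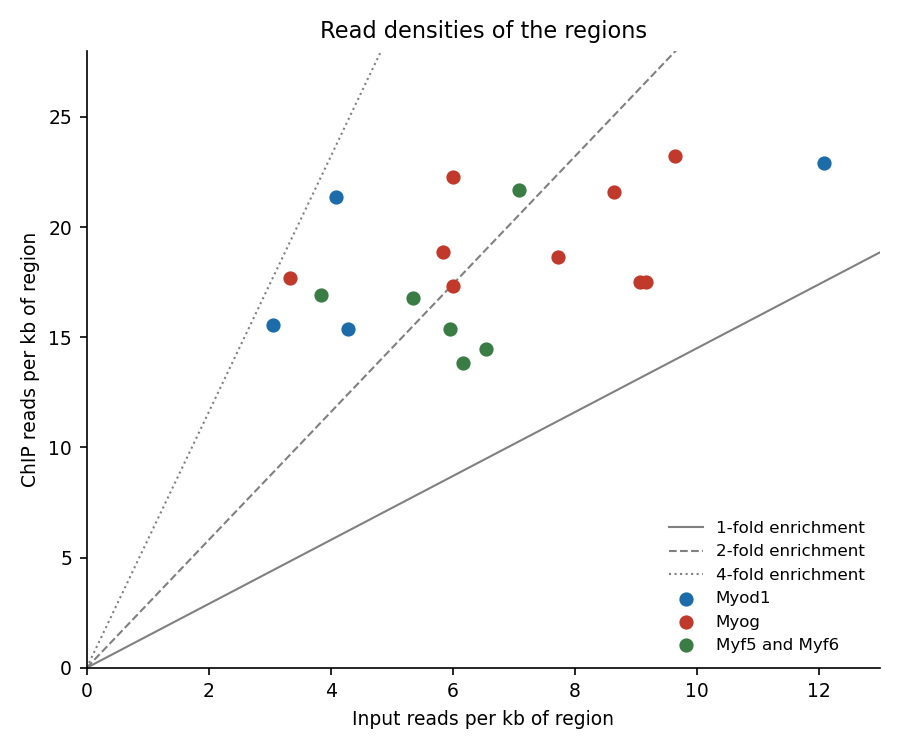
ChIP reads per kb (vertical axis) against input reads per kb (horizontal axis) of the 19 regions, coloured by window, with lines for enrichments of 1, 2 and 4 after library scaling. The points spread along the horizontal axis from 3.06 to 12.1 and stay between 13.8 and 23.2 on the vertical axis.

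To ask whether the loci were richer in regions than their surroundings, each window was compared with end-to-end windows of equal length on its chromosome. At least 1 region was present in 35.0% of the 742 windows on chromosome 7, in 56.4% of the 957 on chromosome 1 and in 65.7% of the 598 on chromosome 10. The Myod1 window was covered more than 84.5% of these windows, the Myog window more than 74.8% and the Myf5 and Myf6 window more than 66.2%. All 3 loci thus stood in the upper part of their chromosome, and none reached the 90th percentile of covered share, at 8.97%, 30.1% and 29.3%. Relative to the covered share of the whole chromosome, the windows reached 2.05, 1.44 and 1.03 times its value, in the same order.

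Much of this rank came from windows with no region at all. Among windows that held at least 1 region, the Myod1 window was covered more than 55.8%, the Myog window more than 55.4% and the Myf5 and Myf6 window more than 48.6%. Chromosome 7 is poor in regions, and in comparison with windows of all chromosomes Myod1 was covered more than 62.5%, below the values of 78.4% for Myog and 72.9% for Myf5 and Myf6. By number, 15.2% of the windows on chromosome 7 had 4 regions or more, 21.4% of those on chromosome 1 had 9 or more and 36.5% of those on chromosome 10 had 6 or more.

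**Figure D4:**
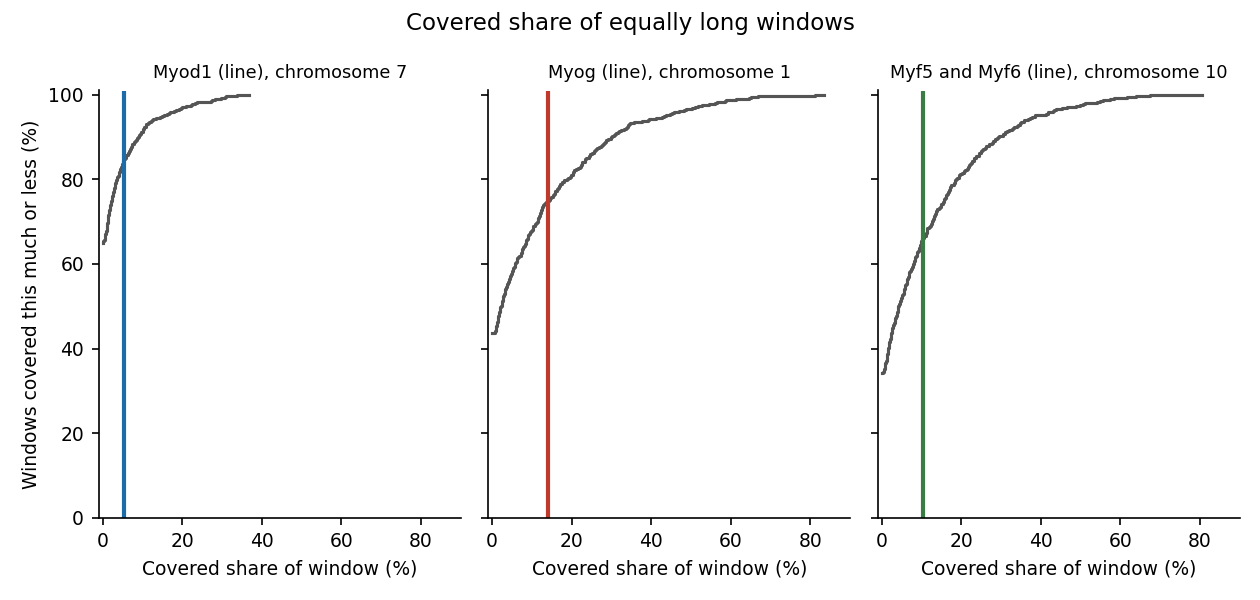
Cumulative share of equally long windows (vertical axis, in percent) by the share of the window covered with regions (horizontal axis, in percent), for chromosomes 7, 1 and 10. Each curve starts at the share of windows with no region (65.0%, 43.6% and 34.3%), and the coloured lines at 5.37%, 14.0% and 10.4% mark the myogenic loci, which cross the curves near 84.5%, 74.8% and 66.2%.

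Finally, the position of the regions within the windows was examined. The central 100 kb were covered to 8.8% at Myod1 and the rest of the window to 2.10%. At Myf5 and Myf6 the shares were 13.2% and 8.0%. Myog had the opposite order, with 4.6% in the centre and 22.9% in the rest. With a centre of 50 kb, a length added after seeing the data, the shares were 10.4% and 3.74% at Myod1, 4.4% and 17.0% at Myog and 5.2% and 12% at Myf5 and Myf6. The centre was thus the more covered part at Myod1 and the less covered part at Myog with both lengths, whereas the order at Myf5 and Myf6 turned with the length chosen. Each part held few regions.

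The region-free stretches over the midpoints, of 64.4 kb at Myod1, 89.8 kb at Myog and 50.6 kb at Myf5 and Myf6, were longer than 77.6%, 93.1% and 88.5% of the separations between neighbouring regions on their chromosomes. A point on a chromosome falls into long stretches more often than into short ones, however. Of the midpoints of equally long windows, 90.8% on chromosome 7, 68.6% on chromosome 1 and 69.9% on chromosome 10 lay in a stretch at least as long. The median stretch at such midpoints was 1281 kb, 307 kb and 205 kb in the same order, and the stretch at each myogenic locus was shorter than this median. At Myog the stretch was 165.0 kb long when only regions of 2-fold or more were kept and 149.2 kb with the exact binomial test. The lack of a call in a stretch does not show that macroH2A1.1 was absent from it.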

How the data were processed

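The deposited region list was made from 1 ChIP and 1 input library of C2C12 cells. According to the study's methods and the submitters' processing notes, reads were aligned to mm9 with Bowtie2 2.0.6 and enriched regions were called with SICER. The file is named after epic, a re-implementation. The counts deposited by the authors are reads per region in each library, not scaled for library size. The methods state a redundancy threshold for the caller, and whether these counts were taken after it could not be seen from the list. The deposited log2 fold change is ChIP over input divided by a library factor, which was 1.45 for every region with any input reads. The deposited score is 100 times the log2 fold change. The p-value and FDR were given by the authors' caller, and the highest FDR in the list was 0.0499. The caller takes the input count as free of error. Starts and widths are multiples of 200 bp and the shortest separation is 800 bp, both smaller than the window and the gap that the methods state, so region counts, chains and separations follow the list and not those settings. Read totals outside regions are unknown.

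Regions were intersected with the windows in Python 3.11.15 (pandas 2.3.3, numpy 2.4.6, scipy 1.17.1). Positions, counted from 0 in the file, are given from 1. Intervals of enrichment (95%) were derived from Clopper-Pearson limits of the proportion of ChIP reads with the library factor taken out, and ratios between windows have exact conditional intervals. PCR copies are not independent molecules, so intervals cover counting error only. The one-sided exact binomial test was adjusted by Benjamini-Hochberg over the whole list. Comparison windows were tiled in phase with each locus from the chromosome start up to the highest region end, the locus left out. Windows in which reads cannot be mapped were not excluded, so they count as covered less and raise the ranks. The covered share of a chromosome was likewise taken over its length up to the highest region end. The ranks are descriptions without a test. Code was tested on simulated data. Every region in a window is named, with the nearest one past each edge. Windows, members and lists were chosen with earlier results of these data known. Alternatives were an FDR of 0.01, a 2-fold limit, the binomial test, joining within 10 kb, regions wholly inside, a floor of 3 input reads, other window sizes and other comparison windows.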

Additional observations from a re-analysis of the deposited data

How the results depend on the processing

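Of 86 recomputed values, 52 counted as unchanged. Shares, ranks and enrichments had to stay within the interval of the reported value, and counts within 1.5 times. A stretch had to keep its exact length. For a ratio between windows, the interval had to include or exclude 1 as before. For covered shares the yardstick was an exact binomial interval over the caller's steps of 200 bp. Neighbouring steps belong to the same region and are not independent, so this interval is too narrow and serves as a yardstick only. With the 2-fold limit the windows of Myog and of Myf5 and Myf6 each held 3 regions, covered 5.17% and 4.74%, the Myog window was covered more than 68.0% of equally long windows, and summed enrichment was 3.15-fold at Myod1 and 2.63-fold at Myog. Joining within 10 kb left 4 regions at Myog. At an FDR of 0.01 the Myog share was 11.2%, the ranks were 81.7% for Myod1 and 71.3% for Myog, the Myod1 enrichment was 3.15-fold, and the ratio of Myod1 to Myf5 and Myf6, 1.67, excluded 1. The binomial test gave 10.1% and a rank of 70.0% at Myog and 3.15-fold at Myod1. Filters removed weak regions by construction. In the inner part of the window, with 0.5 of its length, the covered share was 8.59% at Myod1 and 4.49% at Myog, with ranks of 89.7%, 61.7% and 71.3% for Myod1, Myog, and Myf5 and Myf6. In a doubled window the shares were 2.68% and 19.3%, and the ranks 73.2%, 81.8% and 60.5%. Ranks among windows with a region were 55.8%, 55.4% and 48.6%, and among all chromosomes 62.5%, 78.4% and 72.9%. The stretch at the Myog midpoint, an alternative added after seeing the data, was 165.0 kb with the 2-fold limit and 149.2 kb with the binomial test; it was unchanged at an FDR of 0.01, and the stretches of the other windows were unchanged under these 3 limits.

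No paired analysis was possible because each of the 2 groups has 1 library. The floor of 3 input reads changed nothing, since the lowest input count was 9. The comparison with other myogenic genes was not run, because it needs an mm9 annotation. Read depth limits single regions, since the median counts were 55 ChIP and 21 input reads.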
